A study of Mus musculus with 27 samples.

Results

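The genes described here write, copy, read and remove methylation of cytosine in DNA. They are Dnmt1, Dnmt3a, Dnmt3b, Dnmt3l, Tet1, Tet2, Tet3, Uhrf1, Tdg and Mbd2. Methylation was measured at single positions by reduced representation bisulfite sequencing (RRBS), which reads the CpG-rich part of the genome next to MspI sites. Positions were taken within the GRCm38 span of each gene and 5 kb either side, and were kept where at least 2 of the 3 samples of every strain listed them. This left 2229 positions of the 1951655 that pass the same rule in all the files. In any sample, 4469 positions of these genes were listed.

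The samples were liver hepatocytes, the parenchymal cells of that organ, from female mice aged 12 weeks. They came from 9 inbred strains with 3 samples each, 27 in all, and the labels name no treatment. The laboratory strains were C57BL/6J, A/J, DBA/2J, 129S1/SvImJ, NZO/HlLtJ and NOD/ShiLtJ, and the strains derived from wild mice were WSB/EiJ, PWK/PhJ and CAST/EiJ. The labels call the samples of a strain biological replicates and do not name the animals, so a p-value measures the spread between these samples. The study set methylation beside histone marks and gene expression in the same strains; only methylation was analysed here, and no expression of these genes was measured in these files.

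Cytosine methylation in mammals sits almost entirely at CpG dinucleotides. The DNMT3 enzymes place it on new sites, and Dnmt1, guided by Uhrf1, copies it to the new strand after replication. The TET enzymes oxidise methylcytosine, and Tdg excises the oxidised bases so that repair can restore plain cytosine. Promoters with many CpGs are usually kept free of methylation, while gene bodies and CpG-poor sequence are usually methylated. Dnmt3l has no catalytic activity of its own and is known mainly from germ cells and early embryos, where it assists the DNMT3 enzymes.

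Sequence at the starts shows how CpGs are spread among the members. The 250 bases before a start are given from the RefSeq promoter table of GRCm38.p6, 5′ to 3′ on the gene's strand, with every CpG in capitals. Tet2 (chr3:133544391-133544640, minus strand) is shown as the CpG-rich extreme of the members and Dnmt3b (chr2:153649199-153649448, plus strand) as a start with fewer CpGs that was also unmethylated. The first Dnmt3l start (chr10:78042037-78042286, plus strand) and its second start (chr10:78049592-78049841, plus strand) are shown because the windows around them were methylated in every strain. The kept positions of the first window lay at chr10:78042470-78043028, so none of them lay in the stretch printed for it. The internal Dnmt3a start (chr12:3891494-3891743, plus strand) is shown because its level differed between strains.
Tet2: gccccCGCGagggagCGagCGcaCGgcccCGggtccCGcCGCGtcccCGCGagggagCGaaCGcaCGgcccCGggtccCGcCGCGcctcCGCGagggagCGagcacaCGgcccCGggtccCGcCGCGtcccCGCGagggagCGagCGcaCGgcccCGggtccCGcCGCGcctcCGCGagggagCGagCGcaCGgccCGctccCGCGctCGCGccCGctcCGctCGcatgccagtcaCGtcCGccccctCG
Dnmt3b: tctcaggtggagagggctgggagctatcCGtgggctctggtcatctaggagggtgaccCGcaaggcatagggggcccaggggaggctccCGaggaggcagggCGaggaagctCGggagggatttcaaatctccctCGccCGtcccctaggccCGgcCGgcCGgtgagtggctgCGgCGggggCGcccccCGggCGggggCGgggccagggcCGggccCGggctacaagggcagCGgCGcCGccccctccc
Dnmt3l first start: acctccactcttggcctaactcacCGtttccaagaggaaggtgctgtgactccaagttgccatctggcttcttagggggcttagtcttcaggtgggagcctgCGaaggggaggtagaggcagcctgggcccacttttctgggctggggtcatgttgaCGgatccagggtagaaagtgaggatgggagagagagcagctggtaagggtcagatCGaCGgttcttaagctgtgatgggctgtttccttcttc
Dnmt3l second start: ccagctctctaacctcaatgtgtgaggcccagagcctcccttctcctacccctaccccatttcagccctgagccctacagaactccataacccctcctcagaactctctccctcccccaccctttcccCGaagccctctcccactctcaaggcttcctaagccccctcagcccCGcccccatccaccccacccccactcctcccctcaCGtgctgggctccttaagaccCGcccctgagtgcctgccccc
Dnmt3a internal start: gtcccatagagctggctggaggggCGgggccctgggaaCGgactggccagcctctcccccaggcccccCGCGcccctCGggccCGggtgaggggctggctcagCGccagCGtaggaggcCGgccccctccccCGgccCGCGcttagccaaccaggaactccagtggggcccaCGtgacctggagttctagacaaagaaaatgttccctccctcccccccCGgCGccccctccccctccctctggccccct
These stretches held 51 CpGs in Tet2, 21 in Dnmt3b, 5 and 4 at the Dnmt3l starts and 15 at the internal Dnmt3a start. Over the 300 bases of each table entry, from 250 before to 50 after the start, Tet2 held 57 CpGs, as many as or more than 99.9% of all 32851 promoters in the table. The Dnmt3l starts held 6, 4 and 3, against a median of 7 over all promoters. The table has entries for 9 of the 10 genes; Mbd2 has none.

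Some facts about the whole data set bear on what follows. The correlation between samples of a strain was 0.949 to 0.958 in C57BL/6J and 0.963 to 0.973 in the other 8 strains, and the C57BL/6J files also name the mitochondrial chromosome differently, so processing and strain cannot be told apart there. Of the positions a strain listed inside the promoter table's windows, 99.5% lay on a reference CpG in C57BL/6J and 97.9% in both CAST/EiJ and PWK/PhJ, and sequence differences at single positions were not tested. The files hold percentages without read counts, and their depth is unknown. The hepatocyte label could not be checked from methylation at marker starts. Hnf4a, a liver transcription factor, stood at 7.94 and 4.73% at its starts and Apob, a lipoprotein gene, at 11.3%, and these were the 2 of 8 hepatocyte markers with a readable start. Markers of bile duct cells ranged widely, with Sox9 at 1.02% at one end of its span, Epcam at 11.2%, and Krt19 at 8.97% at one end and 91.4% at the other. Markers of stellate cells stood at 6.08% (Lrat), 13.7% (Des) and 47.0% (one end of Col1a1), and none of the leukocyte, Kupffer or endothelial markers had a readable start.

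Most member positions were at one extreme. Of the 2229, 1527 had a mean over strains under 10%, 500 were over 90% and 202 lay between. Positions whose mean lay at least 2.5 points from 0 and from 100% were tested for a difference among the 9 strains with limma's moderated F test, with p-values adjusted over all such positions in the data. A called position had an adjusted p under 0.05 and a range of 25 percentage points or more between its lowest and highest strain mean. Of 664 member positions tested, 26 were called (3.92%), against 4.34% of all positions tested, so the share of called positions at these genes was near that of the data as a whole.

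The called positions were unevenly spread over the genes. Dnmt3a had 15 of 142 tested, Tet3 4 of 142, Tet1 3 of 74, Mbd2 2 of 54, Dnmt1 1 of 88 and Dnmt3b 1 of 37. Dnmt3l (38 tested), Tet2 (17), Uhrf1 (66) and Tdg (6) had none. At an unadjusted p under 0.05 the same test counted 1, 3, 12 and 0 positions in them, and 98 of 664 over all members. The share of all positions at that threshold was not counted, so nothing is read from these counts. Of the 26, 19 had the other strand of their CpG listed as well, and 6 of these, making up 3 CpGs, were called on both strands.

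Region levels were then compared. A window covered 1 kb either side of a start, and a gene body was the span outside the windows. Where no start was known, either end of the span was used. The same test was run on the mean of at least 5 positions, and a called region had an adjusted p under 0.05 and a range of 10 points or more between strain means. Of 14 member windows tested, 2 were called, the internal start of Dnmt3a and the upper end of Mbd2, against 8.37% of windows over all genes. None of the 9 member bodies tested was called, against 14.7% of bodies over all genes. Of the 9, 1, Tet3, had an adjusted p under 0.05, as had 29.1% of all bodies. An unadjusted p under 0.05 by limma's F test was found in 3 of the 9, and the share of all bodies at that threshold was not counted. By the adjusted p alone 3 of the 14 windows passed, the third being the Dnmt3b start, against 20.3% of all windows.

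**Figure D1:**
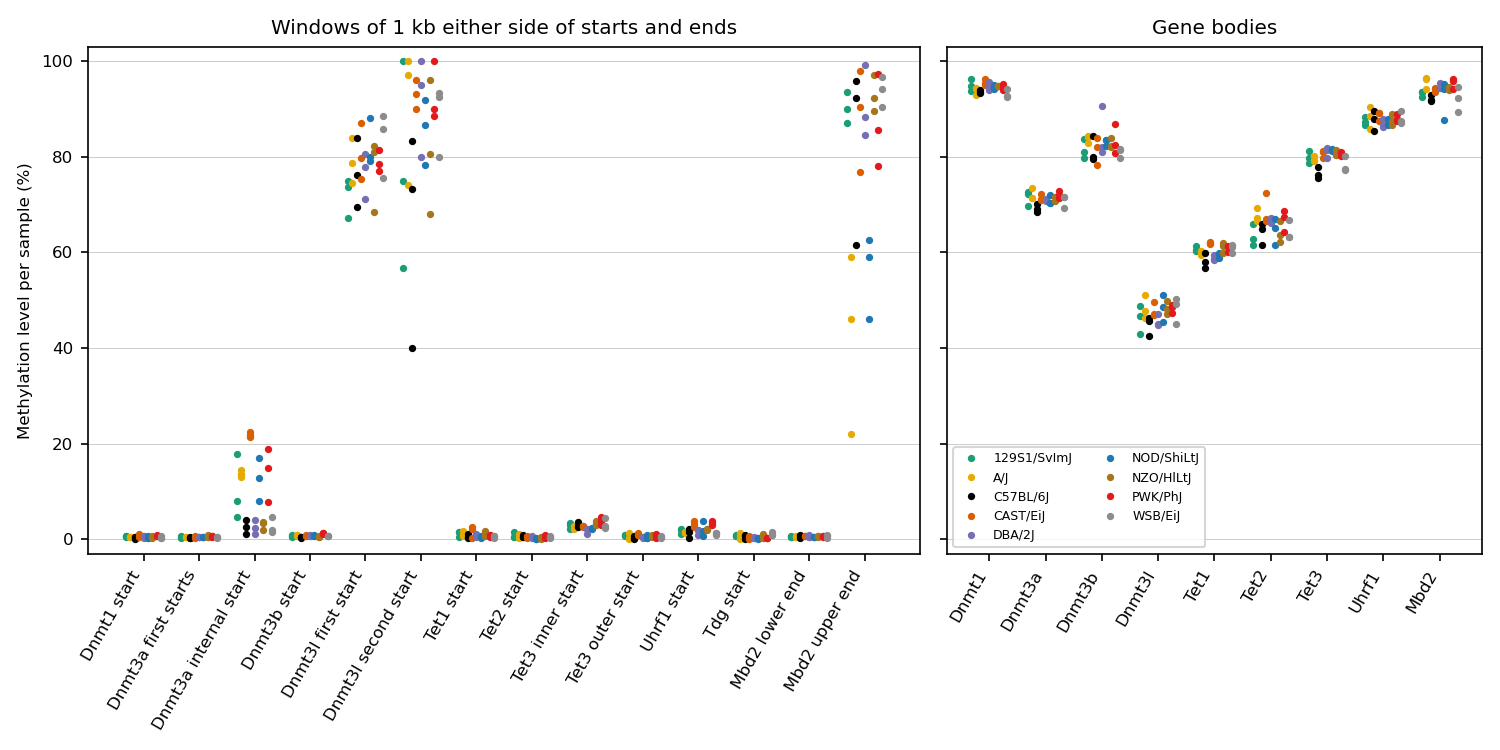
Methylation level in percent of each of the 27 samples (points, coloured by strain) in the 14 windows and 9 gene bodies of the members that were tested. In 11 windows the strain means averaged under 10%; the 2 Dnmt3l starts and the upper end of Mbd2 were over 50%, and samples spread most at the internal Dnmt3a start, the second Dnmt3l start and the upper end of Mbd2.

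Starts of the maintenance pair were unmethylated. Dnmt1, the enzyme that copies methylation at replication (chr9:20907206-20959888), had 67 positions around its main starts, and the 27 samples lay between 0.0878 and 1.08% with a median of 0.523%. Strain means ran from 0.385% in C57BL/6J to 0.841% in CAST/EiJ, a difference that did not pass (limma, adjusted p = 0.445). The single position listed near the outermost Dnmt1 start was methylated in every strain, from 87.1% in NZO/HlLtJ to 100% in C57BL/6J, and was too few for a window. Uhrf1, which binds hemimethylated CpGs and brings Dnmt1 to them (chr17:56303337-56323486), had 110 positions around its starts. Its samples ran from 0.216 to 3.81%, with PWK/PhJ highest at 3.34% and WSB/EiJ lowest at 1.21%, again short of the threshold (limma, adjusted p = 0.0621). The Uhrf1 flank also held the lower end of Kdm4b, a histone demethylase gene, whose 98 positions averaged 0.484%.

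Dnmt3b, one of the 2 enzymes for new methylation among the members (chr2:153649411-153687730), had 168 positions around its starts. Every sample was at or under 1.35%. Strain means ran from 0.459% ± 0.0951 in C57BL/6J to 1.25% ± 0.0882 in PWK/PhJ (SD, n = 3), and although the F test passed (limma, adjusted p = 0.00909), the span of 0.791 points is far under the 10 points required for a call. The PWK/PhJ samples were at 1.35, 1.18 and 1.23% and lay above all 24 others. A single Dnmt3b position, chr2:153650382, was called (limma, adjusted p = 0.0364): both PWK/PhJ samples that listed it were at 100%, while C57BL/6J, DBA/2J and NZO/HlLtJ were at 0% in every sample that listed it. Single samples were also high in NOD/ShiLtJ (100 and 0%) and A/J (50 and 0%), so the strains overlapped there. The other strand of this CpG was tested and not called, with r = 0.104 between the strain means of both strands. Position chr2:153650382 was listed in 23 samples. Its call was lost in 16 of the 27 fits that left out 1 sample, with an offset of 1 point in place of 5 in the log ratio, with no filter on the mean, without C57BL/6J, and without CAST/EiJ and PWK/PhJ (limma, adjusted p = 0.0706, 0.102, 0.0636 and 0.753 for the last 4). Without PWK/PhJ replicate 2 the Dnmt3b window did not pass the F test (limma, adjusted p = 0.0536). Without CAST/EiJ and PWK/PhJ the spread of the Dnmt3b window fell to 0.355 points (limma, adjusted p = 0.571), and over positions listed in all 27 samples it was 0.394 points (limma, adjusted p = 0.352). With a window of 500 bp the spread was 0.268 points (limma, adjusted p = 0.857).

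Dnmt3a, the other enzyme for new methylation among the members (chr12:3801559-3914443), has starts near its 5′ end and an internal start at chr12:3891744 that gives a shorter protein. The 341 positions around the outer starts, all under 10%, ranged over samples from 0.309 to 0.832% (limma, adjusted p = 0.752). The internal start lay inside the span of Gm31623, a long non-coding RNA gene, and its 35 listed positions stood apart from this. At the internal start 5 strains carried methylation above 10% and 4 had means under 3%.

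In CAST/EiJ the samples at the internal Dnmt3a start were at 22.5, 21.5 and 21.8%, a mean of 21.9% ± 0.547 (SD, n = 3). A/J samples were at 13.0, 14.6 and 13.7%, a mean of 13.7% ± 0.806, and PWK/PhJ samples at 18.9, 14.8 and 7.72%, a mean of 13.8% ± 5.64. NOD/ShiLtJ samples were at 17.1, 12.9 and 7.94%, a mean of 12.6% ± 4.57, and 129S1/SvImJ samples at 4.62, 8.03 and 17.9%, a mean of 10.2% ± 6.91. The 3 CAST/EiJ samples lay above all other 24, and the SD was under 1 point in CAST/EiJ and A/J and over 4 points in the other 3 methylated strains. In the low strains the C57BL/6J samples were at 2.61, 4.12 and 1.19%, and the DBA/2J samples at 4.10, 1.05 and 2.44%. NZO/HlLtJ samples were at 3.47, 1.96 and 3.52%, and WSB/EiJ samples at 4.58, 1.84 and 1.56%. The 12 samples of these 4 strains all lay under the 15 samples of the other 5, though the lowest 129S1/SvImJ sample, at 4.62%, was next to the highest WSB/EiJ sample, at 4.58%. The difference among strains passed the test with a span of 19.4 points (limma, adjusted p = 3.36e-05), and it stayed past it without CAST/EiJ and PWK/PhJ, with a span of 11.2 points (limma, adjusted p = 0.00343).

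**Figure D2:**
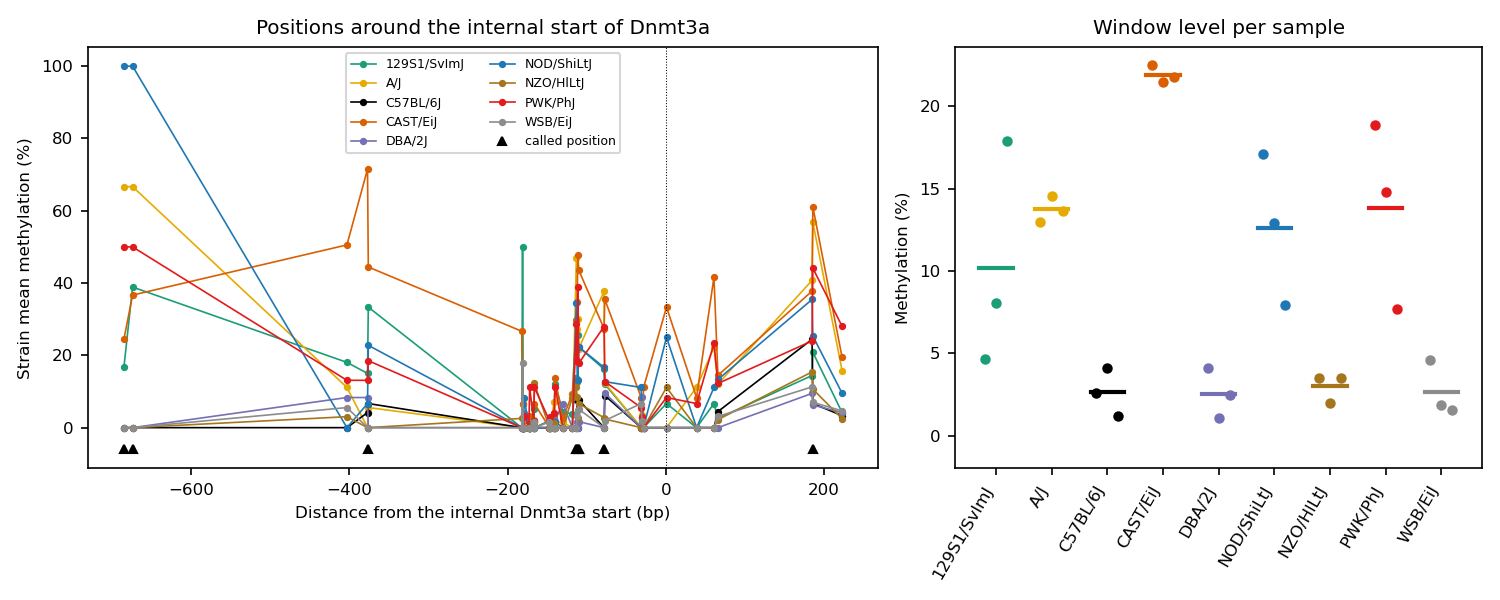
Left, strain mean methylation in percent of the 35 positions around the internal Dnmt3a start against distance from it in bp, with triangles at the called positions; right, the window level of each sample, with a bar at the strain mean. CAST/EiJ samples sit between 21.5 and 22.5%, and the samples of C57BL/6J, DBA/2J, NZO/HlLtJ and WSB/EiJ at or under 4.58%.

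Of the 15 called Dnmt3a positions, 9 lay in this window, of 24 tested there. A run of 5 of them extended from chr12:3891631 to chr12:3891666, between 113 and 78 bp before the start. The stretch printed above for the internal start is repeated here with capitals only at the CpGs of the run, 3 CpGs of which the first 2 adjoin.
Dnmt3a internal start, called CpGs: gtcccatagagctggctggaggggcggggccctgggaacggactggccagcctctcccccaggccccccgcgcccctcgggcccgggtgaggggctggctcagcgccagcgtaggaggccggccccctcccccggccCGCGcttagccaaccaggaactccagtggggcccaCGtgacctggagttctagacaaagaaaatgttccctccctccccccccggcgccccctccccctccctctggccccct
Over the 5 positions of the run, CAST/EiJ was at 36.7% ± 4.60, A/J at 32.7% ± 12.3, PWK/PhJ at 26.3% ± 8.91, NOD/ShiLtJ at 21.0% ± 3.22 and 129S1/SvImJ at 18.1% ± 6.78 (SD, n = 3 each). NZO/HlLtJ was at 6.36% ± 3.69, C57BL/6J at 3.08% ± 3.08, WSB/EiJ at 2.61% ± 2.49 and DBA/2J at 0.667% ± 1.15. Every sample of the first 5 strains, the lowest at 11.9%, lay above every sample of the last 4, the highest at 8.64%. The run is part of the window and was picked for its calls, so its separation of the strains is a description. Without CAST/EiJ and PWK/PhJ, 4 of the 5 positions lost their calls (limma, adjusted p = 0.0556 to 0.327) and chr12:3891631 kept its call (limma, adjusted p = 0.00487). With an offset of 1 point chr12:3891632 and chr12:3891634 lost their calls (limma, adjusted p = 0.0756 and 0.0566), and on untransformed percent chr12:3891666 did (limma, adjusted p = 0.0777). Leaving out 1 sample at a time, chr12:3891632 kept its call in 18 of 27 fits and the other 4 in 27 of 27.

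Other called positions of this window varied in which strain was highest. At chr12:3891059 and chr12:3891070, which share the widest range, both NOD/ShiLtJ samples that listed them were at 100% and all listed samples of C57BL/6J, DBA/2J, NZO/HlLtJ and WSB/EiJ at 0% (limma, adjusted p = 0.00512 and 0.00366), with 21 samples listing each. At chr12:3891367 CAST/EiJ had a mean of 71.5% and the other 8 strains were at or under 15.0% (limma, adjusted p = 0.00412). At chr12:3891930, on the other side of the start, CAST/EiJ was at 61.1% and A/J at 56.8%, against 6.25% in DBA/2J and 6.67% in C57BL/6J (limma, adjusted p = 0.00170). The 4 strains low over the window were at or under 10.7% at this last position. Without CAST/EiJ and PWK/PhJ, chr12:3891059 and chr12:3891070 kept their calls (limma, adjusted p = 0.0125 and 0.0181), while chr12:3891367 and chr12:3891930 lost theirs (limma, adjusted p = 0.804 and 0.0894).

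The body of Dnmt3a was methylated at 68.6 to 73.5% over samples, and its strain means, which spanned 2.85 points, did not pass the test (limma, adjusted p = 0.367). Taken over the whole gene with its flanks, which includes the internal start, the F test passed at a span of 2.00 points (limma, adjusted p = 0.00114). That is far under the 10 points required for a call. In the body 6 single positions were called. The widest, chr12:3867348, was at 75 and 100% in the PWK/PhJ samples that listed it, and at 0 to 50% in the samples of the other 8 strains (limma, adjusted p = 0.0169). At chr12:3865719 PWK/PhJ was again alone, with a mean of 66.7% against at most 12.6% in the other strains (limma, adjusted p = 0.00463). Without PWK/PhJ replicate 1 the first of these positions lost its call (limma, adjusted p = 0.294), and without CAST/EiJ and PWK/PhJ both did (limma, adjusted p = 0.764 and 0.665). The remaining called body positions were lowest in 129S1/SvImJ (chr12:3849433 and chr12:3849675), NZO/HlLtJ (chr12:3819796) and DBA/2J (chr12:3852303). Without CAST/EiJ and PWK/PhJ the first 3 kept their calls (limma, adjusted p = 0.0419, 0.0210 and 0.00730). In that setting chr12:3852303 lost its call (limma, adjusted p = 0.0884). It lost it as well without C57BL/6J, with an offset of 1 point and with no filter on the mean (limma, adjusted p = 0.0676, 0.0668 and 0.0648). Some of the fits that left out 1 sample lost it too. Both 129S1/SvImJ samples that listed chr12:3849675 were at 50%, and its call rests on them. Its other strand was tested and not called, with r = 0.0887 between the strain means of both strands. A stretch of 24 positions just inside the gene, chr12:3808217-3808304, was unmethylated in every strain, with a mean of 0.466%.

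Dnmt3l (chr10:78042287-78063622) was the one gene with known starts whose tested windows were methylated. At the first start, 10 positions averaged 78.5% over strains. They lay from chr10:78042470 to chr10:78043028, inside the gene. The 27 samples ran from 67.1 to 88.6% with a median of 78.8%. Strain means ran from 71.9% ± 4.21 in 129S1/SvImJ to 83.3% ± 6.90 in WSB/EiJ (SD, n = 3), a difference of 11.4 points that did not pass the test (limma, adjusted p = 0.561). At the second start, 5 positions averaged 85.2%, and samples ran from 40.0% in C57BL/6J replicate 1 to 100%. None of these 5 positions was listed in all 27 samples, and within 500 bp of the start they were too few for a test. The lowest strain was C57BL/6J at 65.6% ± 22.7 and the highest CAST/EiJ at 93.0% ± 3.00, and the samples of these strains did not overlap, but the test over strains did not pass (limma, adjusted p = 0.595). The range between strains of 27.5 points rests on C57BL/6J replicate 1, without which it was 15.8 points (limma, adjusted p = 0.842). No position listed by the rule lay around the third Dnmt3l start.

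Sequence read as Dnmt3l also belongs to a neighbour. Aire, the regulator of self-antigen expression in the thymus, starts at chr10:78043610 on the opposite strand, inside the Dnmt3l span, and 9 of the 10 positions of the first Dnmt3l window lay within 1 kb of that start. The 10 positions at the Aire start itself, chr10:78043577-78043655, averaged 1.45%, from 0% in C57BL/6J to 3.16% in PWK/PhJ. The 12 kept body positions of Dnmt3l away from it averaged 93.3%, between 90.7% in DBA/2J and 96.5% in CAST/EiJ. They all lay at chr10:78056919-78057434, and the rest of the body away from the Aire start held no kept position. The level of 47.4% over the 27 body positions mixes the stretch at the Aire start with this methylated stretch. The strains did not pass the test over the 27 positions (limma, adjusted p = 0.509).

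Genes expressed mainly in germ cells, set beside Dnmt3l, were methylated at their starts too. Of 18 germline genes, 17 had a window, and 16 of the 17 windows were over 50%, with a median of 86.4%; Dazl, an RNA-binding protein gene, was at 48.6%. Over all genes 18.3% of windows were over 50%. Of the 17 germline windows, 7 were called (41.2%, against 8.37% of all windows), among them Ddx4, a germ cell helicase, which ran from 69.5% in 129S1/SvImJ to 87.5% in A/J (limma, adjusted p = 1.30e-05). These shares were not matched by level. Of all windows 70.9% were under 10%, where a span of 10 points is harder to reach, against 0 of the 17 germline windows. Both Dnmt3l windows were over 50% as well, and neither was called. By CpG content, the first Dnmt3l start, with 6 CpGs in 300 bases, was near the median of 7, and the second held 4. No kept position lay in the 300 bases of the first start. Among promoters with a readable window, 35.9% of the 2294 with 5 to 9 CpGs were over 50%, as were 51.0% of the 1152 with 0 to 4 CpGs and 0.646% of the 8513 with 20 or more. Most promoters with 0 to 4 CpGs were not read, 1152 of 12496 having a window.

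The TET starts were unmethylated in every strain. Tet1 (chr10:62804570-62887469) had 54 positions around its starts, with samples from 0.221 to 2.64%, and Tet2 (chr3:133463677-133545136) had 96, with samples from 0.106 to 1.55%. Tet3 (chr6:83362373-83457208) had 152 positions at its outer start, from 0.0299 to 1.39%, and 77 at an inner start shared with the non-coding gene B230319C09Rik, from 1.04 to 4.71%. None of these windows passed the test, and the lowest adjusted p was 0.0726 by limma, at the inner Tet3 start. A position near that inner start, chr6:83442221, was called in spite of the low window (limma, adjusted p = 0.0302): all samples of C57BL/6J and NZO/HlLtJ were at 100%, and the DBA/2J samples were at 25, 0 and 33.3%. It lost its call without CAST/EiJ and PWK/PhJ, with an offset of 1 point and with no filter on the mean (limma, adjusted p = 0.0682, 0.0543 and 0.0732). It kept the call in 19 of the 27 fits that left out 1 sample. The other strand of its CpG was tested and not called, with r = 0.271 between the strain means of both strands.

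Inside Tet1, 3 called positions lay together at chr10:62832906-62832940, 54563 to 54529 bp from the outermost start. Of these, chr10:62832939 and chr10:62832940 are the strands of the same CpG, so the run holds fewer CpGs than positions. The WSB/EiJ samples there were at 73.3, 57.1 and 65.7%, the PWK/PhJ samples at 56.1, 69.6 and 48.1% and the CAST/EiJ samples at 62.3, 55.8 and 52.5%. The NOD/ShiLtJ samples were at 6.35, 9.96 and 13.5%. The wild-derived strains were highest, with every sample of theirs above every sample of the other 6, of which the highest, from 129S1/SvImJ, was at 45.3%. The run was picked for its calls, so this separation is a description. The remaining strains had means of 35.5% in 129S1/SvImJ, 31.5% in A/J, 29.3% in NZO/HlLtJ, 25.2% in DBA/2J and 23.0% in C57BL/6J, and their samples overlapped. The adjusted p of the 3 positions was 0.0277, 0.0191 and 0.0241 by limma, and without CAST/EiJ and PWK/PhJ none of the 3 passed, with adjusted p of 0.156 to 0.217. None of them passed with an offset of 1 point either (limma, adjusted p = 0.0552 to 0.168). Elsewhere in the Tet1 body, 11 positions at chr10:62865697-62865912, beside the lower end of the non-coding gene Gm51805, were at 3.87% on average.

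Inside Tet3, the run chr6:83368002-83368105 held 3 called positions among 16. The C57BL/6J samples were at 33.5, 35.8 and 30.8%, a mean of 33.4% ± 2.46, and the WSB/EiJ samples at 49.8, 40.6 and 51.3%, a mean of 47.2% ± 5.82. The other 7 strains had means from 58.8% in 129S1/SvImJ to 72.7% in NOD/ShiLtJ. The C57BL/6J samples lay under all 24 others, and those of WSB/EiJ under the samples of the remaining strains, of which the lowest was at 52.1%. This run too was picked for its calls, so the order of the strains in it is a description. The widest called position, chr6:83368013, was at 0, 16.7 and 0% in C57BL/6J and at 62.5, 76.9 and 63.6% in PWK/PhJ (limma, adjusted p = 0.0189). Without CAST/EiJ and PWK/PhJ the 3 called positions of the run lost their calls (limma, adjusted p = 0.0942 to 0.124). With an offset of 1 point chr6:83368002 and chr6:83368105 lost theirs (limma, adjusted p = 0.116 and 0.167), and the latter kept its call in 20 of the 27 fits that left out 1 sample.

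**Figure D3:**
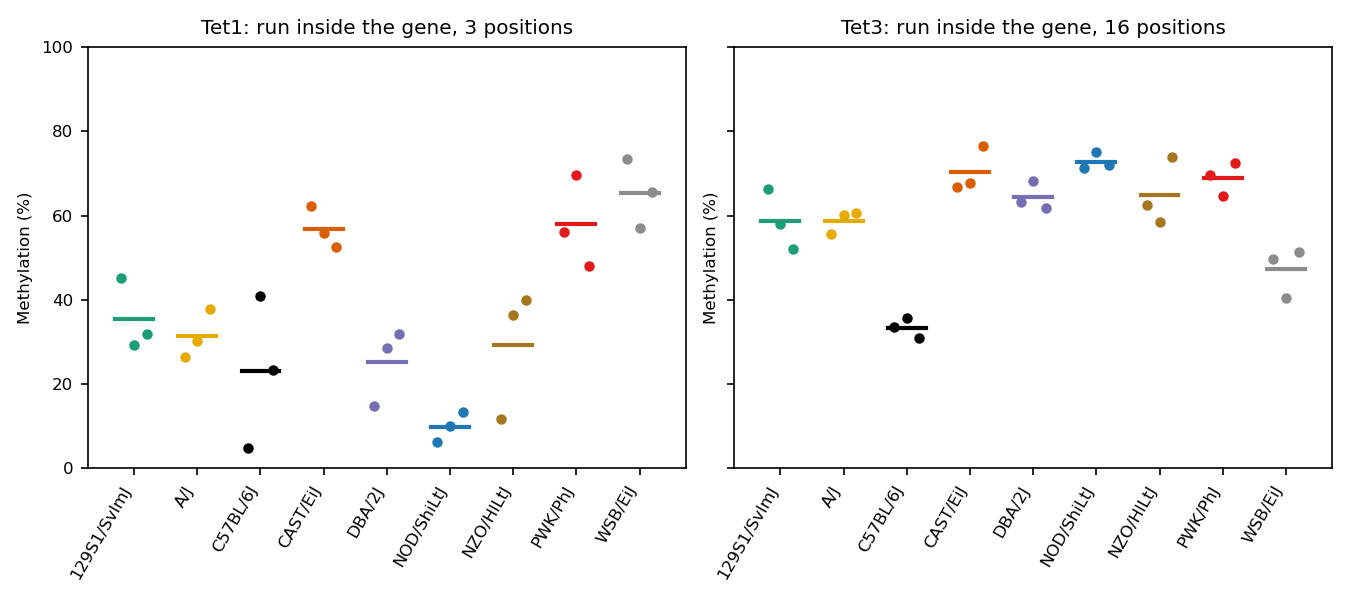
Methylation level in percent of each sample (points) and strain mean (bars) over the run of 3 positions inside Tet1 and the run of 16 positions inside Tet3. In Tet1 the samples of WSB/EiJ, PWK/PhJ and CAST/EiJ are above all others; in Tet3 the C57BL/6J samples, from 30.8 to 35.8%, are below all others.

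The Tet3 body as a whole also had its lowest level in C57BL/6J, at 76.5% ± 1.22, with NOD/ShiLtJ highest at 81.4% ± 0.215 (SD, n = 3). This span of 4.91 points passed the F test (limma, adjusted p = 0.00655) and is under the 10 points required for a call. C57BL/6J is the strain whose samples correlated least with each other. Without it the Tet3 body had an adjusted p of 0.174 by limma, and all 4 called Tet3 positions lost their calls, with adjusted p of 0.106 to 0.453. C57BL/6J was the lowest strain in the body and in the run. Leaving it out thus takes away much of the difference itself, and these losses do not measure the quality of its samples. The Tet1 body, at 58.2 to 62.0% over strains, and the Tet2 body, at 63.4 to 68.7%, did not pass (limma, adjusted p = 0.0717 and 0.209). Over the whole Tet1 gene with its flanks the F test passed (limma, adjusted p = 0.0144), at a span of 2.75 points. The whole Tet3 gene with its flanks passed too (limma, adjusted p = 0.0163), at a span of 2.06 points. The share of all genes that passed in this setting was not counted. The Dnmt1 body was the most highly methylated of the 9, at 93.2 to 95.6% over strains (limma, adjusted p = 0.0736). A position in it, chr9:20921772, was called: all CAST/EiJ samples were at 100% and every other sample at or under 85.7% (limma, adjusted p = 0.0314). This call was lost without any one of the 3 CAST/EiJ samples (limma, adjusted p = 0.127 to 0.128), on untransformed percent (limma, adjusted p = 0.0951) and with no filter on the mean (limma, adjusted p = 0.0697).

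Tdg, the glycosylase that removes oxidised methylcytosine (chr10:82629814-82650799), had 60 positions around its start. Samples ran from 0 to 1.49%, and the strains did not pass the test (limma, adjusted p = 0.374). In its body 3 positions were listed, too few for a test, with strain means from 77.3% in NZO/HlLtJ to 94.2% in CAST/EiJ. Tdg had no called position among 6 tested.

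Mbd2 (chr18:70568225-70629134) is a protein that binds methylated CpGs and recruits a repressor complex. The references used here do not give its strand. Its lower end, which overlaps the end of the non-coding gene Gm31671, held 190 positions and was unmethylated, with samples from 0.256 to 0.902% (limma, adjusted p = 0.940). Its upper end was methylated in most strains and differed between them. The 13 positions there lay 842 to 532 bp inside the end of the span and were listed in 22 to 26 samples each, none of them in all 27.

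The A/J samples at the upper end of Mbd2 were at 22.1, 59.0 and 46.2%, a mean of 42.4% ± 18.7 (SD, n = 3), and the NOD/ShiLtJ samples at 62.6, 46.2 and 59.0%, a mean of 55.9% ± 8.66. The C57BL/6J samples were at 61.5, 92.3 and 95.9%, a mean of 83.2% ± 18.9. The other 6 strains had means between 87.0% in PWK/PhJ and 93.8% in WSB/EiJ, and their lowest sample, from CAST/EiJ, was at 76.9%. A/J and NOD/ShiLtJ were therefore low in all 3 samples, and of the 21 samples of the other strains only C57BL/6J replicate 1 reached down among them. The window passed with a span of 51.4 points (limma, adjusted p = 0.00491). It had no position left over those listed in all 27 samples or within 500 bp of the end, so neither of these alternatives gave a value. In it 2 positions were called: chr18:70628303, with 0, 0 and 50% in A/J and 42.9, 0 and 66.7% in NOD/ShiLtJ against means of at least 63.5% in the other strains, and chr18:70628327, with a mean of 16.7% in A/J (limma, adjusted p = 0.00579 and 0.00322). The Mbd2 body averaged 93.8%, and its strains did not pass the test (limma, adjusted p = 0.162). Over the whole gene with its flanks, which includes the upper end, the F test passed at a span of 2.25 points (limma, adjusted p = 0.00727). That is under the 10 points required for a call.

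**Figure D4:**
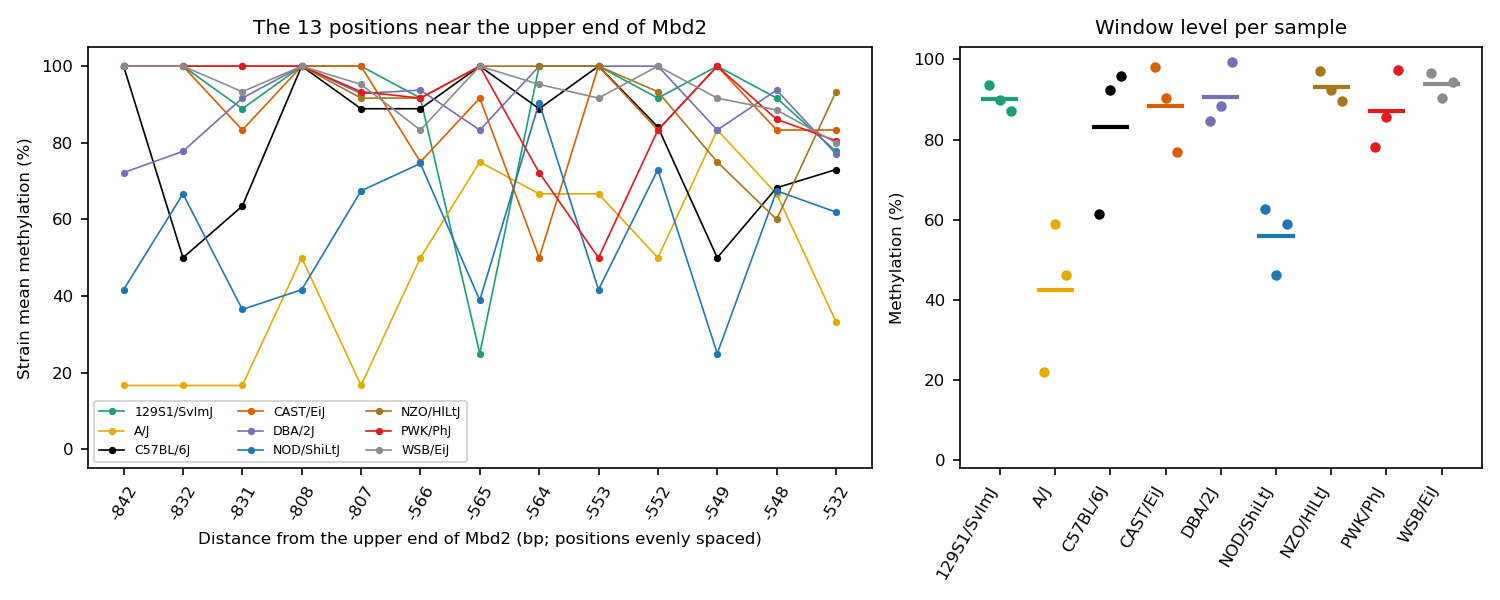
Left, strain mean methylation in percent at the 13 positions near the upper end of Mbd2, evenly spaced and labelled with their distance from the end in bp; right, the window level of each sample with a bar at the strain mean. A/J and NOD/ShiLtJ samples lie between 22.1 and 62.6%, and C57BL/6J replicate 1, at 61.5%, is the only other sample in that range.

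Other genes of the pathway were counted in the same way. Of 30 such genes, among them other methyl-CpG binding proteins, cofactors and genes of methyl donor supply, 28 had a window, and 24 of their 31 windows were under 10%, beside 11 of the 14 member windows and 69.5% of all windows, where windows holding the same positions count once. The median level was 0.655%, beside 0.829% over the 14 member windows and 2.16% over all genes. Of the 31 windows 1 was called, against 8.72% of all windows counted the same way, at the lower end of Dppa3, a protein that shields methylation in the early embryo, from 74.4% in PWK/PhJ to 98.9% in A/J (limma, adjusted p = 1.63e-05). Of 21 bodies tested, 3 were called, against 14.7% of all bodies, each with its lowest and highest strain named here: Apobec1, a cytidine deaminase, from 47.9% in CAST/EiJ to 58.3% in A/J; Gadd45b, a stress-response gene, from 20.8% in WSB/EiJ to 46.3% in PWK/PhJ; and Ahcy, which breaks down S-adenosylhomocysteine, from 49.9% in CAST/EiJ to 88.2% in A/J. The body of these genes had a median of 86.1%, beside 79.9% for the members and 81.9% for all genes.

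The level of the members was then set beside each strain's mean level over all other positions of the rule. That mean was lowest in C57BL/6J, at 30.6%, and highest in PWK/PhJ, at 31.8%, a span of 1.16 points. The lower 6 strains lay between 30.65 and 31.02%, and A/J, CAST/EiJ and PWK/PhJ lay 0.498 points or more above them. Both measures come from the same libraries. Over the 9 strain means, 21 of the 23 member regions correlated positively with the strain mean and 2 negatively. Positive correlations were also the rule outside the members, in 75.6% of the 21743 other windows and 75.2% of the 16251 other bodies, and that mean is made of these positions. Of the 23, 6 had p under 0.05 in an exact two-sided permutation test over all 362880 pairings, and 1 of the 23 after adjustment over the 23 regions, the Dnmt3b start. The 6 were 3 of 14 windows and 3 of 9 bodies, and the same test gave p under 0.05 in 16.8% of other windows and 17.1% of other bodies, and nothing particular to the members is read from these counts.

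Dnmt3b at its start had Pearson's r = 0.787 (exact permutation p = 0.00175, adjusted p = 0.0402) and Spearman's rho = 0.850 (exact permutation p = 0.00607, adjusted p = 0.0466). Without PWK/PhJ and A/J, the strains farthest from the median, r was 0.567, so the relation at Dnmt3b rests in part on them. Over the 164 positions of this window listed in all 27 samples, an alternative added after seeing the data that leaves out chr2:153650382, r was 0.657 (exact permutation p = 0.0576, adjusted p = 0.173). On such positions 3 of 21 regions passed adjustment: the internal Dnmt3a start with r = 0.809, the Uhrf1 start with r = 0.838 and the Uhrf1 body with r = 0.864 (exact permutation, adjusted p = 0.0402 for each). Which regions pass thus changed with the positions used. Over all positions of the rule, the Uhrf1 start had r = 0.722 and the Uhrf1 body r = 0.587. Without CAST/EiJ and PWK/PhJ these were 0.210 and 0.359. In that setting r was 0.611 at the Dnmt3b start, 0.835 at the internal Dnmt3a start and 0.748 in the Dnmt3a body. The internal start of Dnmt3a had r = 0.823 (exact permutation p = 0.00600, adjusted p = 0.0534) and rho = 0.900 (exact permutation p = 0.00203, adjusted p = 0.0466), and r was 0.951 without PWK/PhJ and A/J. The Dnmt3a body had r = 0.762 (exact permutation p = 0.00697, adjusted p = 0.0534) and rho = 0.850 (exact permutation p = 0.00607, adjusted p = 0.0466), and r was 0.584 without them and 0.480 over positions listed in all 27 samples (exact permutation p = 0.189, adjusted p = 0.321). Within the 6 strains of lower mean level, r was 0.390 at the Dnmt3b start, 0.836 at the internal Dnmt3a start and 0.669 in the Dnmt3a body (exact permutation p = 0.425, 0.0264 and 0.0931). The lowest p among these 6 strains was at the lower end of Mbd2, in the opposite direction, with r = -0.830 (exact permutation p = 0.0181). No region passed adjustment among these 6 strains, where the lowest adjusted p was 0.303 by the exact permutation test. The 2 regions with negative r over the 9 strains were the Tdg start, at -0.302, and the upper end of Mbd2, at -0.381 (exact permutation p = 0.434 and 0.300). Without CAST/EiJ and PWK/PhJ r was 0.0223 at the Tdg start and -0.814 at the upper end of Mbd2. No p-value was computed in that setting.

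**Figure D5:**
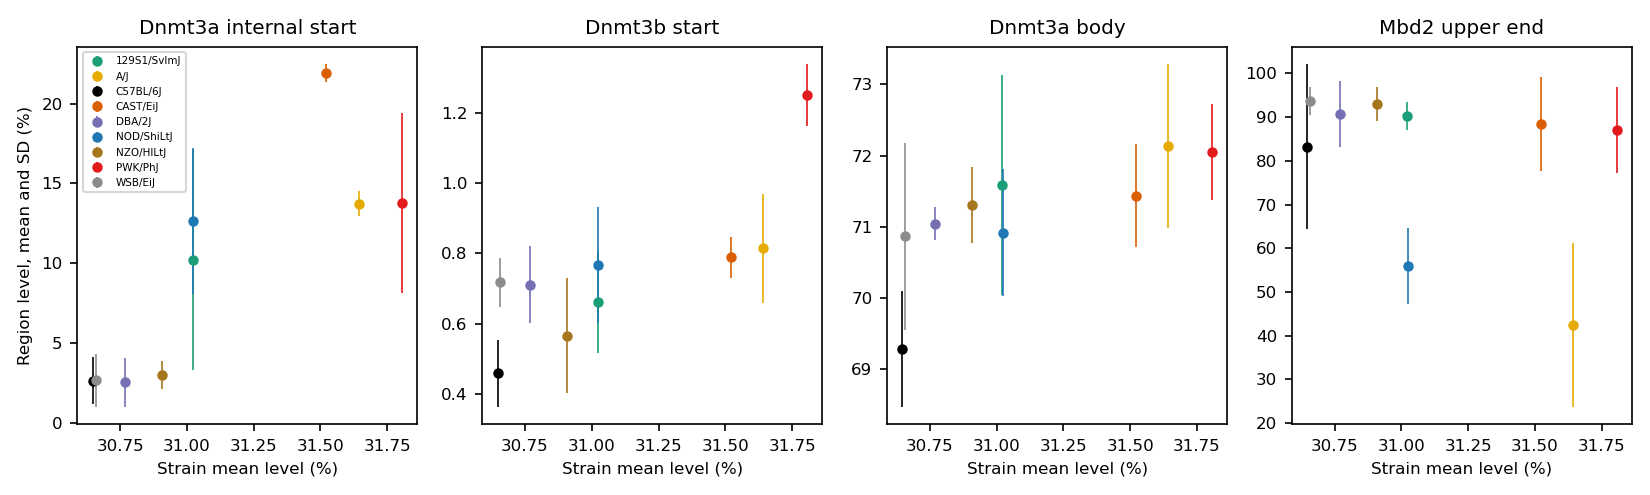
Region level (mean and SD of 3 samples, percent) against the strain mean level over all other positions (percent) for the 9 strains, in 4 member regions. The internal Dnmt3a start is at or under 2.99% in the 4 strains of lowest mean level and at or over 10.2% in the other 5. The upper end of Mbd2 shows no such order over the 9 strains, and its lowest means are those of A/J and NOD/ShiLtJ.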

How the data were processed

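RRBS libraries were made from hepatocyte DNA of 27 samples with MspI digestion, bisulfite conversion and PCR, per the labels' protocols. Trim Galore 0.6.3, Bowtie2, Bismark 0.22 and the builds GRCm38 and mm10 are named in the submitters' processing notes. The authors deposited the percent methylation of single positions, per the file headers, without read counts, so that no counting interval is given and a low-coverage filter, if any, is not given in the sources used here. Of the rule's positions inside RefSeq promoter windows of GRCm38.p6, 99.96% lay on a CpG, with 56.3 to 56.5% after a shift by 1 bp either way.

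Because counts were lacking, the planned count test was replaced by limma's moderated F test on log2((percent + 5)/(100 - percent + 5)) with strain as the factor, computed in Python 3.11.15 with missing values left out. Run beside limma 3.58.1 in R 4.3.3 on 704330 positions listed in all samples, it passed the same 38128 positions. P-values were adjusted by Benjamini-Hochberg over all features of a kind. Region levels are mean deviations from the position means, which adjusts for positions a sample does not list, limited to 0 and 100%. In simulated data, built on 60000 measured positions and on 21759 windows, some features were shifted in 1 strain. Called were 16.5% of positions shifted by 30 points, 59.0% of those shifted by 50 points and 91.5% of windows shifted by 20 points. Of the simulated position calls 5.41% were false, a share that depends on the number and size of the shifts built in. The simulated noise was normal, whereas measured percentages at single positions are coarse, so 5.41% is not an error rate for the calls reported here. The replicate numbers did not pair samples: over 76 same-numbered pairs the correlations of deviations ran from -0.00809 to 0.00882. Samples were grouped by the strain of their labels.

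The genes, gene lists and tests were chosen with earlier results of these data known. Positions named in the text are the called position of widest range in each member region, runs of at least 3 called positions at most 200 bp apart, and, chosen after their values were seen, chr12:3891367, chr12:3891930, chr12:3865719, chr12:3849433, chr12:3849675, chr12:3819796, chr12:3852303 and chr18:70628327. Stretches inside gene bodies were also named after their values were seen. Settings tried are given with their effects in the closing section or beside the results, though not all of them for every result.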

Additional observations from a re-analysis of the deposited data

How the results depend on the processing

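The count of called member positions, 26 (3.92% of those tested, against 4.34% of all positions), was 35 on untransformed percent (5.27 against 5.47%), 15 with an offset of 1 point in place of 5 (2.26 against 2.90%) and 8 without CAST/EiJ and PWK/PhJ (1.25 against 1.5%), a setting chosen after seeing the data; with a replicate block for the labels' numbers, which do not pair the samples, it was 17 (2.56 against 3.19%). The count was 23 with no filter on the mean (1.24 against 2.03%) and 21 without C57BL/6J (3.19 against 4.23%), the latter also chosen after seeing the data. Over positions listed in all 27 samples it was 22 (4.4 against 4.97%), and with both strands of a CpG averaged 26 (5.63 against 5.57%). A span of 10 points gave 27 (4.07 against 4.68%). Flanks of 2 kb and no flanks gave 26 each (4.16 and 4.36 against 4.34%). Leaving out 1 sample at a time gave 22 to 29. The count of called windows, 2, was 1 with windows of 500 bp or over positions listed in all 27 samples, where the upper end of Mbd2 had no positions left, and 1 with a minimum span of 25 points, which the internal Dnmt3a start does not reach; leaving out single samples gave 2 to 2. No body was called in any setting except without a minimum span, where 1 was (Tet3), and leaving out single samples gave 0 to 0. The count of regions related to the strain mean level, 1, was 0 within the 6 strains of lower mean level, a setting chosen after seeing the data, where fewer strains enter, and 3 over member positions listed in all 27 samples, also chosen after seeing the data; by Spearman's rho it was 3. Of 1972 values under alternatives, 1835 were scored as unchanged, called or not, 125 were no longer called and 2 were newly called. A call here needs the minimum span as well as the adjusted p, and the other 10 are the counts above. Direction was scored only for results called, or relations past adjustment, in the main fit, and none of these reversed. Some relations that did not pass changed sign. At the lower end of Mbd2, for one, r was 0.194, and -0.366 without CAST/EiJ and PWK/PhJ. By limma's adjusted p alone, 19 of 883 values of windows and bodies newly passed, in 7 regions, and 5 no longer did, in the Dnmt3b start and the Tet3 body; the Uhrf1 start, for one, passed without C57BL/6J (adjusted p = 0.0459) and on untransformed percent (0.0493). The called position in Dnmt3b passed in 11 of 27 fits that left out 1 sample, whereas the internal Dnmt3a window and the upper end of Mbd2 passed in 27 of 27, with adjusted p up to 0.000159 and 0.0226 by limma. Without read counts, the part of depth in the spread of single positions was not tested.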
